A study of Homo sapiens with 8 samples.

Results

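The circadian clock genes described here are 10 genes: the activators ARNTL and CLOCK, the repressors PER2, PER3, CRY1 and CRY2, the E-box repressors BHLHE40 and BHLHE41, and the D-box activators DBP and TEF. They were taken by gene symbol, and the rule used no measured value, but they were chosen with earlier results of these data known. All 10 were listed in each of the 3 tables of the series, which together list 16126 genes. The series holds 8 libraries of polyadenylated RNA from 3 human prostate cancer lines, each with an enzalutamide-sensitive form and a resistant form (ENZR). Enzalutamide is a drug that blocks the androgen receptor. C4-2B, which was derived from LNCaP and grows without androgen, gave 2 libraries and C4-2BENZR gave 2, and both forms carried a luciferase and a GFP transgene. CWR-R1, from a relapsed prostate xenograft, and VCaP, from a vertebral metastasis with a fusion of TMPRSS2 and ERG, gave 1 library per form (CWR-R1, CWR-R1ENZR, VCaP and VCaPENZR), with no transgene named. Each resistant form is a single line, and the labels used here give neither how it was derived, nor the drug present at harvest, nor the time of harvest.

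The circadian clock is a transcriptional feedback loop that runs in most cells of the body. CLOCK pairs with ARNTL (also called BMAL1), and the pair binds E-boxes and switches on the PER and CRY genes, whose proteins return to the nucleus and inhibit the pair. A second loop sets ARNTL itself, which ROR receptors activate and REV-ERB receptors (NR1D1 and NR1D2) repress. BHLHE40 and BHLHE41 (DEC1 and DEC2) repress at E-boxes. DBP, TEF and HLF activate genes with D-boxes, where NFIL3 represses. In tissue many of these transcripts rise and fall with the day. In a culture that has not been synchronised, the cells drift out of phase and bulk RNA shows an average over them. In prostate cancer, CRY1 is known as a gene that responds to androgen and takes part in DNA repair.

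Since clock proteins act through short DNA motifs, promoter stretches of these genes that hold the letters of one are given first. RefSeq promoter windows (GRCh38.p14, 250 bases before to 50 bases after each start) were found for all 10 genes, 15 windows in all. They were searched on both strands for the E-box CACGTG, the E-box variant CACGTT, the D-boxes TTATGTAA and TTATGCAA, the ROR/REV-ERB element AGGTCA and the cAMP response element TGACGTCA. CACGTG and CACGTT share their first 5 bases and cannot both match the same letters. In the lines below the motif is in capitals, read 5′ to 3′ on the strand of the gene, and AACGTG is the variant on the opposite strand.
PER2, chr2:238288776-238288833, minus strand, variant 197 bases before the start: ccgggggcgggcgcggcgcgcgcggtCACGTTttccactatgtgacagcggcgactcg
CRY1, chr12:107093607-107093664, minus strand, variant 89 bases before the start: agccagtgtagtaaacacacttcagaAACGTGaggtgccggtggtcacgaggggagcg
CRY2, chr11:45847261-45847318, plus strand, variant 188 bases before the start: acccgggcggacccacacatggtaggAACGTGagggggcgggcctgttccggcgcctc
CLOCK, chr4:55546088-55546145, minus strand, variant 187 bases before the start: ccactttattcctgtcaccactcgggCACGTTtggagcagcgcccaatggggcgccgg
PER3, chr1:7784088-7784147, plus strand, D-box 177 bases before the start: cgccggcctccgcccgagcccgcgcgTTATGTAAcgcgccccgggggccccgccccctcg
TEF, chr22:41381723-41381780, plus strand, E-box 193 bases before the start: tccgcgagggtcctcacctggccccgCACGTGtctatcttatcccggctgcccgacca
BHLHE40, chr3:4979187-4979223, plus strand, E-box 245 bases before the start: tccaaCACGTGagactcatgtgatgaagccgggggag
BHLHE41, chr12:26125054-26125111, minus strand, E-box 48 bases before the start: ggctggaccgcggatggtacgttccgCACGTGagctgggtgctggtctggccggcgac
The E-box stood in windows of 3 of the 10 genes (BHLHE40, BHLHE41 and both TEF windows), against 8.77% of the genes in the promoter table. The variant stood in 4 (CLOCK, PER2, CRY1, CRY2; 6.44% of genes), the D-box in 1 (PER3; 2.16%), the ROR/REV-ERB element in 2 (ARNTL and both CRY2 windows; 16.5%) and the cAMP response element in 0 (2.25%). In ARNTL that element lies 32 bases after the start. Such a match is a description of the letters, and the single DBP window held none of those searched.

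Levels are given in the deposited unit, a read number divided by a scaled library size, which is near to CPM but not equal to it. Reads in the listed genes numbered 14503586 to 20248655 per library, and each table had its own normalization, so levels are set side by side across tables with no test. The clock genes were read at 16 to 2335 reads per library. All 10 luminal prostate markers looked for, such as KRT8 and HOXB13, were listed in every table, with a summed level of 2091 to 10578. In CWR-R1ENZR 8 of the 10 had at least 3 reads. KLK3, a defining one, had no read there, and KLK2 was at 0.134. Both were also low in the sensitive CWR-R1, at 1.96 and 4.72. In the library labelled VCaPENZR, KLK3, KLK2 and STEAP2 were at 0.774, 0.953 and 1.31. KRT8 alone made 3444 of its luminal sum of 5038. Of 6 fibroblast, 5 endothelial and 5 blood markers, at most 2 each were listed in a table, and their summed levels were 12.3 to 66.4, 3.13 to 27.5 and 0.135 to 5.29. The library labelled VCaPENZR went against its label. ERG, from the fusion that marks VCaP, was at 428 in VCaP and 0.179 in that library. Over the 12868 genes in all 3 tables its log2 values correlated at 0.94 with CWR-R1ENZR, 0.89 with CWR-R1 and 0.728 with VCaP (genes are not independent replicates).

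**Figure D1:**
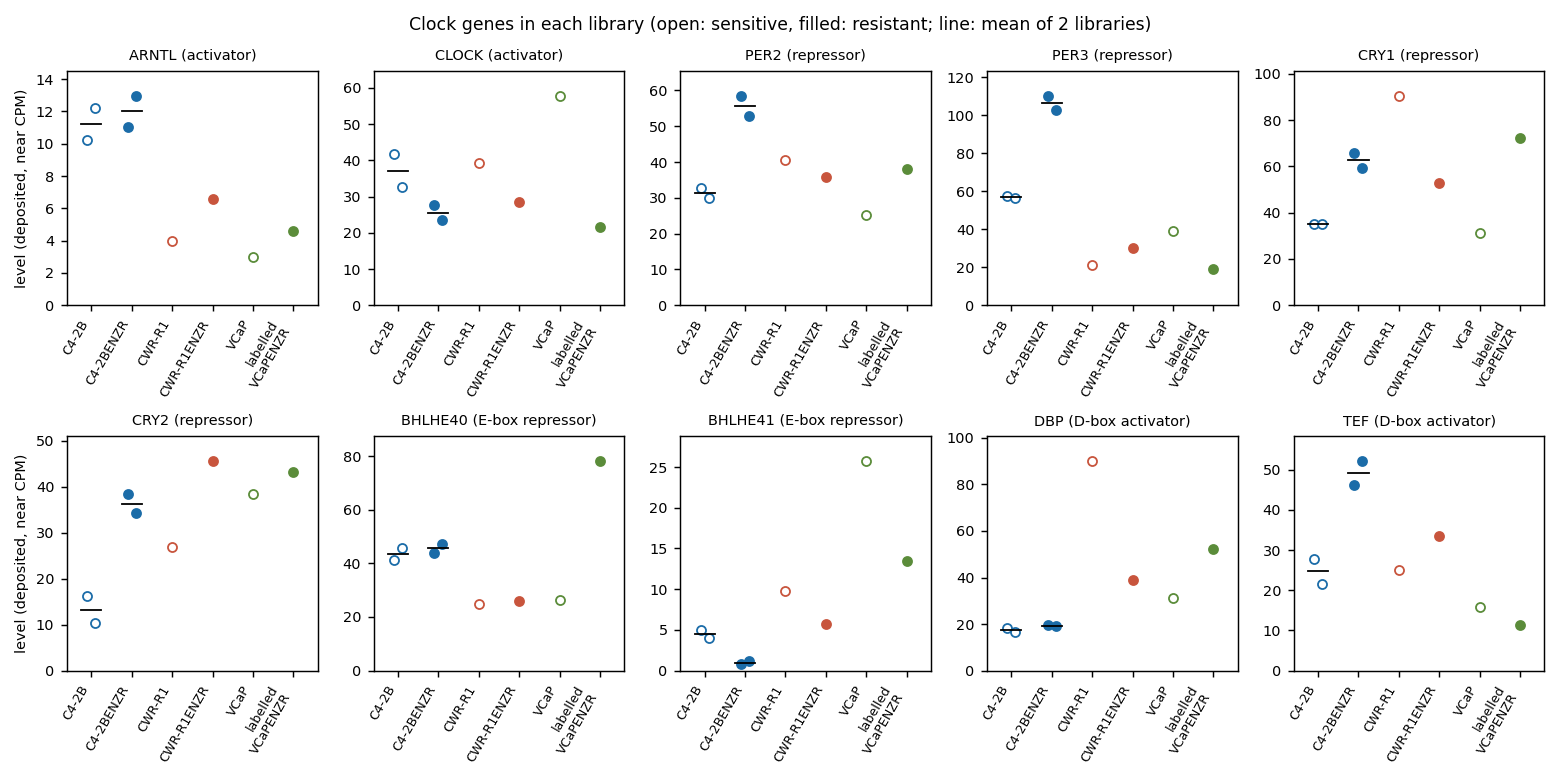
Level of each of the 10 clock genes (y axis, deposited level, near CPM, from 0) in the 8 libraries, grouped by cell line on the x axis; open points are sensitive and filled points resistant libraries, and lines mark the means of the 2 C4-2B and the 2 C4-2BENZR libraries. PER2, PER3, CRY1, CRY2 and TEF sit higher in both C4-2BENZR libraries than in both C4-2B libraries, and CLOCK and BHLHE41 sit lower.

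The first comparison asked how the clock genes differed between C4-2BENZR and C4-2B. PER2, PER3, CRY1, CRY2 and TEF rose in the resistant line, between 1.78-fold and 2.73-fold. CLOCK and BHLHE41 fell, and ARNTL, BHLHE40 and DBP did not pass the test. The counts were 5 higher and 2 lower of the 10 genes tested (limma, adjusted p below 0.05, 2 libraries against 2). Many genes differed between these lines: 56.8% of the 13280 genes tested were called, 27.8% higher and 29% lower (3691 and 3856 genes; 4748 and 2924 with total counts as the only scaling), so the number of calls by itself is close to the background. With a change of at least 1.5-fold as well, 6 of the 10 clock genes were called (5 higher, 1 lower), against 23.4% of all genes (12.5% higher, 10.9% lower). The median log2 change of the 10 genes was 0.48 and that of all genes tested −0.00075. The p-values cover the spread between libraries of 1 sensitive and 1 resistant line. In bulk RNA, fewer cells with a transcript and less of it per cell cannot be told apart.

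Of the activators, CLOCK, a histone acetyltransferase and the partner of ARNTL, was at 41.7 and 32.6 in the C4-2B replicates and at 27.7 and 23.5 in the C4-2BENZR replicates. The groups did not overlap (neither did those of 8 of the 10 clock genes and of 77.4% of all genes), but the C4-2B replicates stood farther apart than the gap between the groups. CLOCK fell 1.45-fold, a log2 change of −0.52 with a standard error (SE) of 0.12 and a limma adjusted p of 0.00156. Log2 changes throughout are on the scale of log2(level + 1), which understates the change of low genes. ARNTL was at 10.2 and 12.2 in C4-2B and at 11.1 and 13.0 in C4-2BENZR, so the groups overlapped (log2 change 0.09, SE 0.15, limma adjusted p = 0.624).

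PER2 and PER3 encode Period proteins, which carry the cryptochromes into the inhibitory complex. PER2 stood at 32.6 and 29.9 in C4-2B and at 58.5 and 52.8 in C4-2BENZR, a rise of 1.78-fold (log2 change 0.81, SE 0.09, limma adjusted p = 9.26e-07). PER3 stood at 57.6 and 56.7 against 110.3 and 103.0, a rise of 1.87-fold (0.89, SE 0.07, limma adjusted p = 1.17e-08). In both genes the distance between the lines was several times that between replicates.

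The cryptochromes CRY1 and CRY2 are the main inhibitors of the CLOCK and ARNTL pair. CRY1 was at 35.1 and 35.0 in C4-2B and at 65.9 and 59.3 in C4-2BENZR, 1.79-fold higher (log2 change 0.82, SE 0.08, limma adjusted p = 3.73e-07). CRY2 was at 16.2 and 10.3 in C4-2B and at 38.4 and 34.2 in C4-2BENZR, 2.73-fold higher (1.41, SE 0.16, limma adjusted p = 1.01e-06). CRY2 had the largest rise of the 10 genes and the widest spread between C4-2B replicates relative to its mean (13.3 ± 4.20, SD, n = 2). With each library left out in turn its log2 change ranged from 1.11 to 1.72 and was called each time.

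The E-box repressors parted. BHLHE40, which also answers to hypoxia, was at 41.5 and 45.7 in C4-2B and at 44.0 and 47.4 in C4-2BENZR, with overlapping groups (log2 change 0.07, SE 0.09, limma adjusted p = 0.522). BHLHE41 was low in every library of this lineage, at 4.95 and 3.99 in C4-2B (96 and 77 reads) and at 0.756 and 1.16 in C4-2BENZR (16 and 20 reads). Its mean was 4.67-fold lower in C4-2BENZR (log2 change −1.48, SE 0.22, limma adjusted p = 2.36e-05). On reads, without adding 1 to the level, edgeR put that change at −2.22.

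The D-box activators parted as well. TEF, a bZIP factor of the PAR family, was at 27.9 and 21.5 in C4-2B and at 46.1 and 52.2 in C4-2BENZR, 1.99-fold higher (log2 change 0.97, SE 0.11, limma adjusted p = 1.93e-06). DBP, its relative and a direct target of the CLOCK and ARNTL pair, was at 18.3 and 16.6 against 19.7 and 19.0. Its groups did not overlap, yet the difference did not pass (0.14, SE 0.12, limma adjusted p = 0.325). An exon of DBP overlaps one of SPHK2 on the opposite strand in GENCODE v29, and the use of strand in counting is not stated, so reads there cannot be assigned to one of them. SPHK2 was at 32.2 and 34.0 in C4-2B and at 23.6 and 24.2 in C4-2BENZR. CLOCK, PER2, PER3, CRY1 and BHLHE40 overlap genes on the opposite strand too, and of those only BHLHE40-AS1 is listed in a table, that of VCaP, at 0.171 and 1.07.

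Markers of other cell types also differed between these lines. The summed level of the 6 fibroblast markers was 15.1 and 12.3 in C4-2B and 54.0 and 49.4 in C4-2BENZR, nearly all of it COL1A1, a collagen chain, which rose 3.72-fold (limma adjusted p = 1.175e-09). COL1A2, COL3A1, DCN and FAP were not listed, and LUM had no read in C4-2B and stood at 0.567 and 1.22 in C4-2BENZR. The endothelial sum, from VWF alone, was 7.53 and 7.25 against 3.54 and 3.88, and the blood sum, from HBA1 alone, was 2.84 and 2.59 against 0.236 and 0.579. The luminal sum was 5848 and 5878 against 3406 and 3545, and KLK3 alone fell from a mean of 2045 to 48.6. CDH1, HOXB13, FOLH1 and STEAP2 were also called lower. KRT8, KRT18, EPCAM, KLK2 and TMPRSS2 were called higher, so the luminal markers moved in both directions. The part of these differences in the clock results was not tested.

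**Figure D2:**
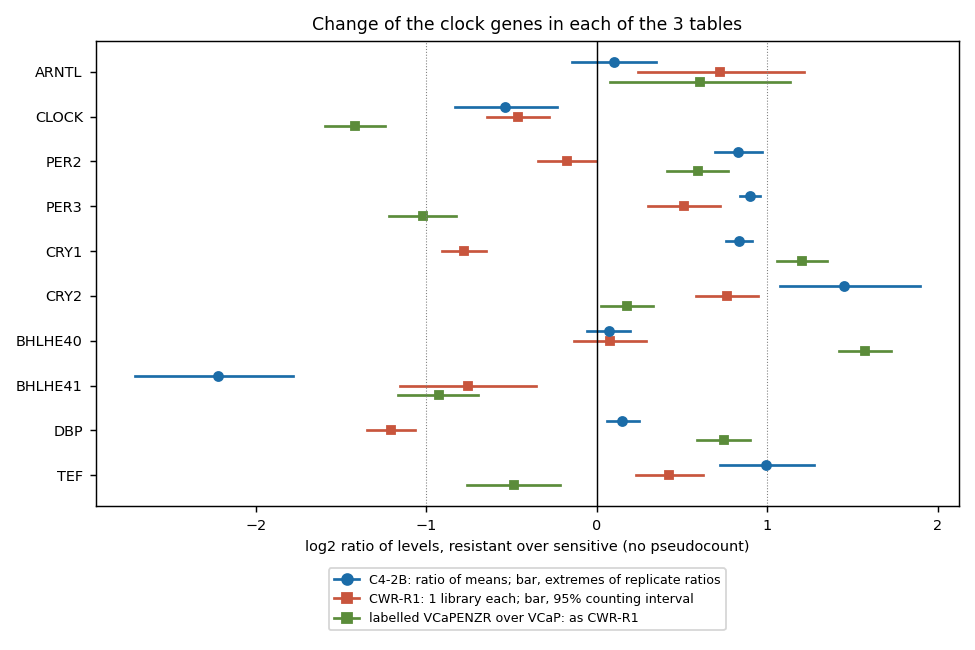
Log2 ratio of levels, resistant over sensitive, without a pseudocount (x axis), for each clock gene (y axis) in the 3 tables; circles are ratios of C4-2B means with bars from the smallest to the largest ratio of single replicates, and squares are single-library ratios with 95% counting intervals. CLOCK and BHLHE41 lie to the left and CRY2 to the right in all 3 tables, while PER2, PER3, CRY1, DBP and TEF lie on both sides.

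Other genes of the clock pathway were read from 5 lists of 39 genes, of which 36 were tested in C4-2B. In C4-2BENZR 15 rose and 11 fell, 72.2% of those tested, against 56.8% of all genes (27.8% higher, 29% lower), and their median log2 change was 0.02. With so many genes called, the counts of the short lists that follow are descriptions. Among paralogues and core partners, 3 of 4 rose and 0 fell. PER1, the third Period gene, was at 31.6 and 31.9 in C4-2B and at 87.2 and 83.2 in C4-2BENZR, a rise of 2.69-fold (limma adjusted p = 2.04e-10). An exon of PER1 overlaps a protein-coding gene on the same strand that is not listed, so reads there cannot be assigned. NPAS2, a paralogue of CLOCK, rose 2.34-fold from 6.04 ± 0.496 to 14.1 ± 0.181 (SD, n = 2, limma adjusted p = 1.19e-05). NPAS2 overlaps antisense genes on the opposite strand that are not listed. CIART, a repressor of the CLOCK and ARNTL pair, rose 1.57-fold (limma adjusted p = 0.0108). ARNTL2, the paralogue of ARNTL and the 1 gene of the list that did not pass, was at 26.8 ± 2.42 and 30.7 ± 3.22 (limma adjusted p = 0.154).

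Of the nuclear receptors and bZIP factors, 5 of 7 were tested, and 2 rose and 1 fell. The REV-ERB genes moved in opposite directions. NR1D2, which encodes REV-ERB beta, was at 51.8 and 57.5 in C4-2B and at 25.9 and 24.5 in C4-2BENZR, 2.17-fold lower (limma adjusted p = 4.40e-08). NR1D1, which encodes REV-ERB alpha, was at 8.51 and 7.35 against 13.1 and 16.6, 1.88-fold higher (limma adjusted p = 0.000299). NR1D1 shares exon sequence with THRA on the opposite strand, and THRA was at 35.3 and 36.3 against 55.0 and 58.1. RORA stayed under the filter on low values.

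Kinases, ligases and stability factors gave 4 higher and 7 lower of 12 tested. PRKAA1, a catalytic subunit of AMP-activated kinase, which marks cryptochromes for degradation, fell 1.92-fold to 116 ± 0.815 (limma adjusted p = 7.25e-10). FBXW11, an adaptor for Period proteins, fell 1.70-fold (limma adjusted p = 4.97e-08). The cofactors gave 4 higher and 1 lower of 8: KDM5A, which shares exon sequence with CCDC77 on the opposite strand, rose 1.46-fold, the acetyltransferase EP300 1.42-fold and SFPQ 1.20-fold. EP300 overlaps an antisense gene and, on its own strand, a microRNA gene, neither of them listed. Of 7 output genes, 2 rose and 2 fell: KLF10 rose 1.46-fold, the cell cycle kinase WEE1 rose 1.21-fold, and ALAS1, the first enzyme of haem synthesis, fell 1.28-fold.

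**Figure D3:**
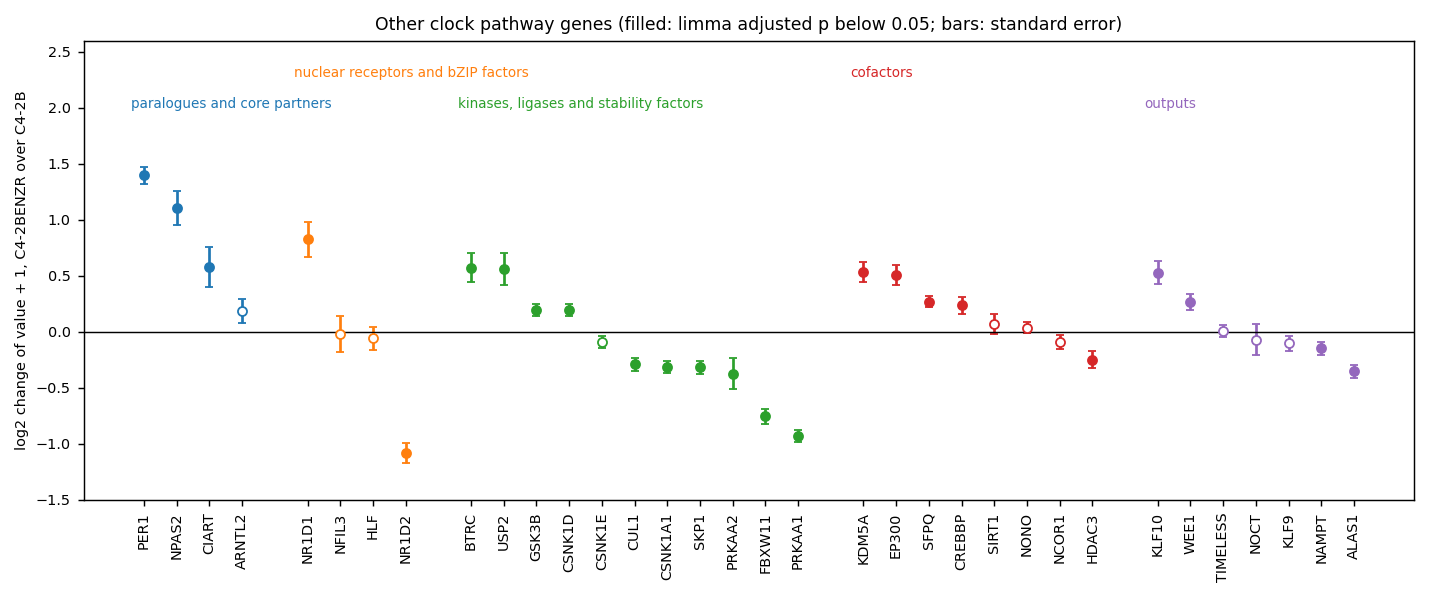
Log2 change of value + 1 in C4-2BENZR over C4-2B (y axis) with its standard error for 34 of the 36 tested pathway genes (x axis), coloured by list; filled points passed at a limma adjusted p below 0.05. PER1 stands highest at 1.40 and NR1D2 lowest at −1.08, and most filled points of the kinases, ligases and stability factors lie below 0.

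CWR-R1ENZR was then set against CWR-R1, with 1 library per form, so these differences have no replicate check and no test. The intervals given are 95% exact binomial (Clopper-Pearson) and cover counting error only. At least 2-fold apart were 0 of the 10 clock genes higher and 1 lower, against 9.79% and 10.3% of the 12462 genes compared (20.1% in either direction). At 1.5-fold, 5 clock genes were apart, against 39.8% of all genes. The gene past 2-fold was DBP, whose level of 90.1 in the sensitive library compared with 39.0 in the resistant one, 2.31-fold lower (interval 2.09 to 2.55). SPHK2, which overlaps it, was at 10.3 and 64.8. TEF, the other D-box activator, stood at 25.03 and 33.6, so the D-box activators lay on opposite sides.

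The cryptochromes also lay on opposite sides in CWR-R1. CRY1 stood at 90.5 in the sensitive library and 52.7 in the resistant one, 1.72-fold lower (interval 1.57 to 1.88), and CRY2 was at 26.9 and 45.6, 1.70-fold higher (1.497 to 1.93). PER2 was at 40.5 and 35.9 (1.13-fold lower, 1.00 to 1.27) and PER3 at 21.0 and 29.9 (1.42-fold higher, 1.23 to 1.65). CLOCK was at 39.4 and 28.6 (1.38-fold lower, 1.21 to 1.56) and ARNTL at 3.98 and 6.57 (59 and 98 reads; 1.65-fold higher, 1.18 to 2.32). BHLHE41 was at 9.72 and 5.76 (1.69-fold lower, 1.28 to 2.23). BHLHE40 was at 24.8 and 26.1, with an interval that included equality (1.06-fold, 0.913 to 1.22). How many of all genes have an interval that leaves out equality was not computed. The median log2 ratio of the 10 genes was −0.05, and that of all genes −0.02.

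Of the other pathway genes, 37 were compared in CWR-R1, and 3 were at least 2-fold higher and 4 lower, near the shares of all genes (9.79% and 10.3%). CIART was at 5.6 and 23.2 (4.14-fold higher, 3.25 to 5.33) and KLF10 at 53.0 and 129.6 (2.45-fold, 2.25 to 2.66). The 4 lower ones, named after their values were seen, were HLF, ARNTL2 (41.5 and 12.4), TIMELESS (252 and 78.1) and RORB (7.08 and 2.55). HLF, a D-box activator related to DBP and TEF, was at 106.7 and 1.74 (61.2-fold lower, 41.6 to 94.0). In C4-2B and C4-2BENZR, HLF did not pass the test (41.2 ± 2.67 and 39.7 ± 5.91, SD, n = 2, limma adjusted p = 0.635). HLF stood at 0.285 in VCaP and at 6.13 in the library labelled VCaPENZR. Of the genes that led in C4-2B, PER1 was at 95.1 and 119.0, NR1D2 at 70.0 and 92.5, FBXW11 at 80.2 and 82.2, and PRKAA1 at 159 and 258.

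The library labelled VCaPENZR was set against VCaP, again 1 against 1, and with the doubt about its label given above. Of the 9 clock genes that reached a level of 5 in either library, 2 were at least 2-fold higher and 1 lower, against 21.1% and 22% of the 12502 genes compared (43.1% in either direction). BHLHE40 was at 26.3 in VCaP and 78.2 in that library, 2.97-fold higher (interval 2.67 to 3.31), and CRY1 was at 31.4 and 72.2, 2.30-fold higher (2.08 to 2.55). CLOCK was at 57.8 and 21.6, 2.68-fold lower (2.37 to 3.03). PER3, at 39.2 and 19.3, was 2.03-fold lower by its levels (1.78 to 2.32), but the count was made on the log2(level + 1) scale, where it stood at −0.99, just short of the threshold. With a pseudocount of 0.5 or median-of-ratios scaling it passed, and 4 genes were counted in place of 3. At 1.5-fold, 6 of the 9 clock genes were apart, against 62.9% of all genes. PER2 was 1.51-fold higher by its levels (25.2 and 37.9), but at 0.57 on the log2(level + 1) scale it was not counted. DBP was 1.68-fold higher (31.3 and 52.4, with SPHK2 at 54.9 and 11.9) and CRY2 1.13-fold higher (38.3 and 43.3, interval 1.02 to 1.26). BHLHE41 was 1.90-fold lower (25.7 and 13.5), TEF 1.40-fold lower (15.8 and 11.3), and ARNTL, under the filter, was at 3.02 and 4.58.

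Among the 37 other pathway genes compared in this table, 12 were at least 2-fold higher and 5 lower, against 21.1% and 22% of all genes (43.1% in either direction). NR1D1 was at 8.08 in VCaP and 105.3 in the library labelled VCaPENZR (13.0-fold, 10.98 to 15.6), with THRA at 29.7 and 229, and PER1 was at 13.5 and 82.6 (6.12-fold, 5.33 to 7.05). CIART had 2 reads in VCaP and stood at 10.9 in the other library (95.7-fold, 26.1 to 796). NR1D2 was at 47.6 and 76.3. The 5 lower ones, named after their values were seen, were NFIL3, the repressor at D-boxes (26.8 and 9.47, 2.83-fold lower, 2.36 to 3.41), EP300 (169.8 and 65.1), SFPQ (263 and 110.4), BTRC (46.4 and 22.5) and CSNK1D (290.8 and 144).

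Since that library resembled CWR-R1ENZR over the transcriptome, its clock genes were laid beside both. By the ratio of levels with no pseudocount, 7 of the 10 genes were within 2-fold of CWR-R1ENZR. Within 2-fold of VCaP were 6, PER3 being beyond it on this scale. These counts are close, and the share of all genes within 2-fold of either library was not computed. CLOCK (21.6) and CRY1 (72.2) were nearer to CWR-R1ENZR (28.6 and 52.7) than to VCaP (57.8 and 31.4). BHLHE40 stood apart from both, and TEF (11.3) was nearer to VCaP (15.8) than to CWR-R1ENZR (33.6). These levels come from separately normalized tables and single libraries.

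**Figure D4:**
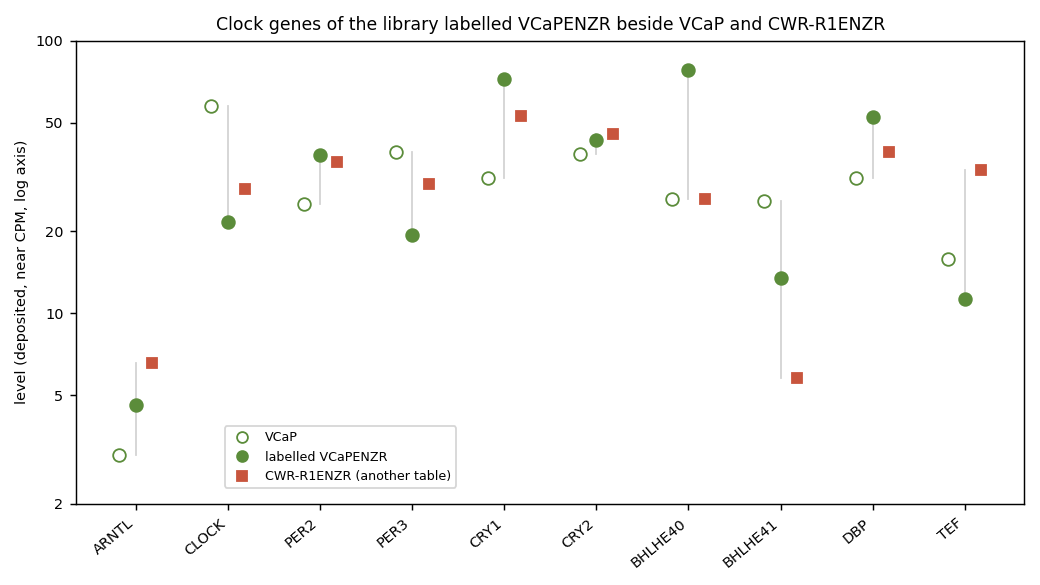
Level of each clock gene (y axis, deposited level, near CPM, log axis) in VCaP, in the library labelled VCaPENZR and in CWR-R1ENZR, which is from another table; grey lines span the 3 levels. BHLHE40 at 78.2 in the library labelled VCaPENZR lies about as far above VCaP as above CWR-R1ENZR, whereas PER2 and CRY2 of that library nearly meet those of CWR-R1ENZR.

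Across the 3 tables, the difference between resistant and sensitive had the same sign in 5 of the 10 clock genes. In C4-2B and CWR-R1, without the VCaP table, it had the same sign in 7 of 10. The shares of all genes were not computed, so these counts are descriptions. CLOCK, CRY2 and BHLHE41 were the 3 that were called in C4-2B and whose counting interval lay on the same side in both other tables. The share of all genes that meet this was not computed either. The VCaP comparison rests on the library that goes against its label. CRY2 there stood just beyond equality (1.13-fold, 1.02 to 1.26, counting error only). Its log2 ratio there ran from 0.15 to 0.27 over other scalings and pseudocounts. CLOCK had log2 changes of −0.52, −0.45 and −1.38 in C4-2B, CWR-R1 and VCaP, BHLHE41 had −1.48, −0.66 and −0.88, and CRY2 had 1.41, 0.74 and 0.17. ARNTL had 0.09, 0.60 and 0.48, of which the first did not pass the test. The lines also differed in level. BHLHE41 ran from 0.957 ± 0.284 in C4-2BENZR through 4.47 ± 0.683 in C4-2B, 5.76 in CWR-R1ENZR, 9.72 in CWR-R1 and 13.5 in the library labelled VCaPENZR to 25.7 in VCaP. ARNTL was highest in C4-2BENZR (12.01 ± 1.35) and C4-2B (11.2 ± 1.42), which did not differ beyond their spread, and lowest in VCaP. PER3 was highest in C4-2BENZR (106.6 ± 5.21), and next in C4-2B (57.1 ± 0.587). DBP was lowest in C4-2B (17.4 ± 1.16) and C4-2BENZR (19.3 ± 0.502) and highest in CWR-R1.

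The genes most like ARNTL over the 8 libraries, by Pearson correlation of log2(level + 1) among 11520 genes with a mean of at least 5, were ZC2HC1C (0.99), MRPL47 (0.98) and ZMYM6 (0.98). Those most like DBP were LOC646762 (0.999), DAZAP2 (0.99) and ANGPTL4 (0.99). These correlations describe 8 points from 6 lines in 3 separately normalized tables, and points of one table share a normalization.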

How the data were processed

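Total RNA was purified on kit columns and freed of DNA, and paired ends were read, per the labels' protocols. The submitters' processing notes name hg19. Aligner, counter and strand setting: not given in the sources used here. Per cell line, the authors deposited 1 table with a signal value per library, and fold, p-value and false discovery rate columns, which were not used. Only genes the authors called detectable are listed. The deposited signal is whole reads over a scaled library size: within 0.02 reads, 100% of values were whole multiples of 1 read, so reads were recovered (14503586 to 20248655 per library).

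In C4-2B, genes that reached a value of 1 in 2 or more libraries were fitted on the log2(value + 1) scale with limma 3.58.1 (trend, R 4.3.3), two-sided, Benjamini-Hochberg adjusted over all genes tested, threshold 0.05, with no block. For the single-library tables, genes that reached 5 in either library were compared at 2-fold, with no test. Alternatives used edgeR 4.0.16, which called 7522 genes on the recovered reads, DESeq2 1.42.0, other scalings, filters and pseudocounts, omitted libraries and a replicate block. The code was tested on simulated data. The replicates are labelled biological, with no word on what they share, and their reads differed beyond sampling noise (mean chi-square for a gene 5.67 for the C4-2B pair and 3.99 for the C4-2BENZR pair). All 10 clock genes were named; of each of the 5 pathway lists, up to 3 called genes with the largest change in C4-2B. The clock genes and lists were chosen with earlier results of these data known. Some pathway genes are counted but not reported here by name. Of these lists FBXL21 is in no table and RORB not in that of C4-2B. Intervals cover counting error only: without molecular identifiers, reads are not independent molecules.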

Additional observations from a re-analysis of the deposited data

Results flagged for a closer look

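Of the clock genes, 5 lay in opposite directions in 2 of the cell lines. The share of all genes that did so was not computed. The single-library changes have counting error alone as their error, with no replicate check. The differences between lines were not tested, since 2 of the 3 lines have 1 library per form. PER2 rose in C4-2BENZR (log2 change 0.81) and was slightly lower in CWR-R1ENZR (log2 ratio −0.17). CRY1 rose in C4-2BENZR (0.82) and was lower in CWR-R1ENZR (−0.77). PER3 rose in C4-2BENZR (0.89) and was lower in the library labelled VCaPENZR (−0.99), and TEF did likewise (0.97 and −0.45). DBP, which did not pass the test in C4-2B, was lower in CWR-R1ENZR (−1.19) and higher in the library labelled VCaPENZR (0.73). Those of VCaP rest on a library that goes against its label.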

How the results depend on the processing

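The 5 rises and 2 falls in C4-2B were called under each of 13 alternatives, except that BHLHE41, under a filter that asks for a value of 5 in 2 libraries, was not tested, which left 1 fall. Leaving out 1 library at a time gave 5 higher and 2 lower, with 5962 to 6804 genes called in all and 19 to 25 of the other pathway genes, against 26. CLOCK then ranged from −0.69 to −0.34 (highest adjusted p = 0.0231, without C4-2B replicate 1). Genes that did not pass changed sign: ARNTL ranged from −0.026 to 0.21 (negative without C4-2B replicate 1 and without C4-2BENZR replicate 2) and BHLHE40 from −0.00079 to 0.14 (negative without C4-2B replicate 1). With 1 library in a group, it is assumed to vary like the other group. With the replicate as a block, 5 clock genes were higher and 2 lower and 8248 genes were called; with that block in edgeR, an alternative chosen after seeing the data, 5 and 2. Same-numbered replicates hardly deviated together (correlation 0.050 over 13280 genes), and the block changed no call of a clock gene. Total counts as the only scaling moved the median of all genes by 0.10. At 1.5-fold, 5 clock genes were apart in CWR-R1 (39.8% of all genes) and 6 in VCaP (62.9%), against 1 and 3 at 2-fold. Low depth limits BHLHE41 in C4-2BENZR and ARNTL in CWR-R1 and VCaP most.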
